A study of Homo sapiens with 18 samples.

Results

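The 9 genes described are APP and its relative APLP2, the protease and protease-subunit genes ADAM10, PSEN2 and NCSTN, the adaptor genes APBB1 and APBB2, and the apolipoprotein genes APOE and CLU. They were taken as a named group of genes around the handling of the amyloid precursor, with every probe set that the platform annotation assigns to 1 of them alone. They make up 9 of 11963 genes, and 31 of 19065 probe sets, that such an annotation covers on the array. Of the 31 probe sets 28 passed a signal filter and were tested, and the other 3 (1 each of APLP2, PSEN2 and APBB2) reached a signal of 50 on at most 2 of the 18 arrays.

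The amyloid precursor protein is a membrane protein that is cut in alternative ways. A cut by an α-secretase such as ADAM10 sheds its outer part and falls within the amyloid β sequence, whereas a cut by the β-secretase BACE1 followed by γ-secretase, a complex that holds a presenilin and nicastrin, releases amyloid β. FE65 adaptors, which APBB1 and APBB2 encode, bind the tail that stays in the cell, and the lipid carriers apolipoprotein E and clusterin bind amyloid β outside it.

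The study exposed SK-N-MC cells, a human neuroectodermal tumour line that the sample labels call neuroepithelioma and the study calls neuroblastoma, to rotenone, an inhibitor of mitochondrial complex I, as a model of parkinsonism in culture. Cells received 5 nM rotenone, 50 nM rotenone or the vehicle alone (0.05% ethanol) for 1 or 4 weeks, in medium without pyruvate. The rotenone groups are named by week and dose, as 1w5 nM and 4w5 nM or 1w50 nM and 4w50 nM, and the vehicle groups as 1w0 nM and 4w0 nM, with 3 Affymetrix GeneChip arrays (chip A of the HG-U133 design) each. The labels describe 5 nM as non-lethal and 50 nM as killing some of the cells. Each array held RNA pooled from 5 dishes of 1 of 3 experiments with the same cell line, so the p-values describe the spread between experiments with that line and not between dishes or donors. A signal is the level of messenger RNA in a whole culture, in which fewer expressing cells and less RNA per cell cannot be told apart.

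Values are dChip model-based expression indices (MBEI), a linear intensity per probe set. Differences were tested on the log2 scale, with signals under 16 raised to 16, by limma across 13705 probe sets, and a probe set was called at a Benjamini-Hochberg adjusted p below 0.05. Where a gene is given by a single value, it is read from its tested probe set of highest mean signal. A probe set name ending in _x_at marks probes that can also bind other transcripts. Array medians lay between 87 and 102. The 3 arrays of the 1w0 nM group resembled each other least, with a lowest correlation between replicates of 0.908, against 0.965 to 0.988 in the other groups. No probe set differed between 4w0 nM and 1w5 nM by limma, while 447 differed between the vehicle groups of 4 weeks and 1 week. The 18 hybridization control probe sets read 0.496 times as high on the 6 rotenone arrays of 4 weeks as on the other 12 arrays, and the log2 ratio of the 3′ to the 5′ probe set of ACTB was 0.13 to 0.21 on the 4w50 nM arrays, against −0.09 to −0.04 on the 4w0 nM arrays. On the 1w0 nM arrays it ran from −0.22 to 0.13. The same ratio of GAPDH was −0.08 to 0.06 on the 4w50 nM arrays, against −0.06 to 0.02 on the 4w0 nM arrays. The part of these shifts in the results was not tested. Of 10 measured markers of noradrenergic neuroblastoma 7 passed the filter, with GATA2, GATA3 and MYCN at 50 or more on all 18 arrays and PHOX2A, HAND2 and TH under 50 on all 18. The 10 measured genes of the EWS-FLI1 family of tumours all passed it. The study's tables of group means match the deposited arrays only if 1w5 nM replicate 2 and 1w50 nM replicate 3 are exchanged. The arrays were kept as labelled, and the calls of the members named here that end with the exchange are given as such. Calls of genes other than the members were not followed through the exchange.

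After 1 week APOE and APLP2 were higher than in vehicle cells at both doses, and at 50 nM CLU was also higher and ADAM10 lower. After 4 weeks ADAM10 was higher and APOE, APBB1 and APBB2 were lower at both doses, while APP was higher and APLP2 and PSEN2 were lower at 5 nM, and CLU was lower at 50 nM. For APBB2 this is the direction of its probe set of highest mean signal, whereas 212985_at and 40148_at were called higher in 4w50 nM cells. The 1-week rise of APLP2 is likewise that of some of its probe sets, and others stayed near vehicle. With 1 probe set read per gene, 2 of the 9 genes were higher and 0 lower in 1w5 nM cells (beside 4.89% and 1.59% of all genes), and 3 were higher and 1 lower in 1w50 nM cells (beside 8.97% and 11.4%). In 4w5 nM cells 2 were higher and 5 lower (beside 18.5% and 14.1%), and in 4w50 nM cells 1 was higher and 4 lower (beside 23.3% and 17.6%). In 1w5 nM cells 6 probe sets of the 28 were higher and 1 was lower than in 1w0 nM cells, or 25% in either direction, against 6.68% of all probe sets tested (4.79% higher and 1.88% lower). In 1w50 nM cells 7 were higher and 5 lower, or 42.9%, against a background of 21.8% (8.23% higher and 13.6% lower). In 4w5 nM cells 4 were higher and 12 lower than in 4w0 nM cells, or 57.1%, against a background of 32.4% (18.3% higher and 14.1% lower). In 4w50 nM cells 5 were higher and 9 lower, or 50%, against a background of 41% (22.9% higher and 18.1% lower), so that this last share lies close to that of the whole array. The 3 rotenone arrays did not overlap the 3 vehicle arrays in 10 of the 28 probe sets for 1w5 nM (background 24.3%), 13 for 1w50 nM (31.4%), 22 for 4w5 nM (52.8%) and 22 for 4w50 nM (60.4%). The comparisons of a week share their vehicle arrays. Read as 1 value per gene, the members' log2 fold changes had a median of 0.40 at 5 nM and 0.32 at 50 nM after 1 week, beside 0.07 and 0.02 for all 9162 genes. It was −0.42 in 4w5 nM cells and −0.22 in 4w50 nM cells, beside 0.03 and 0.02 for all genes.

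**Figure D1:**
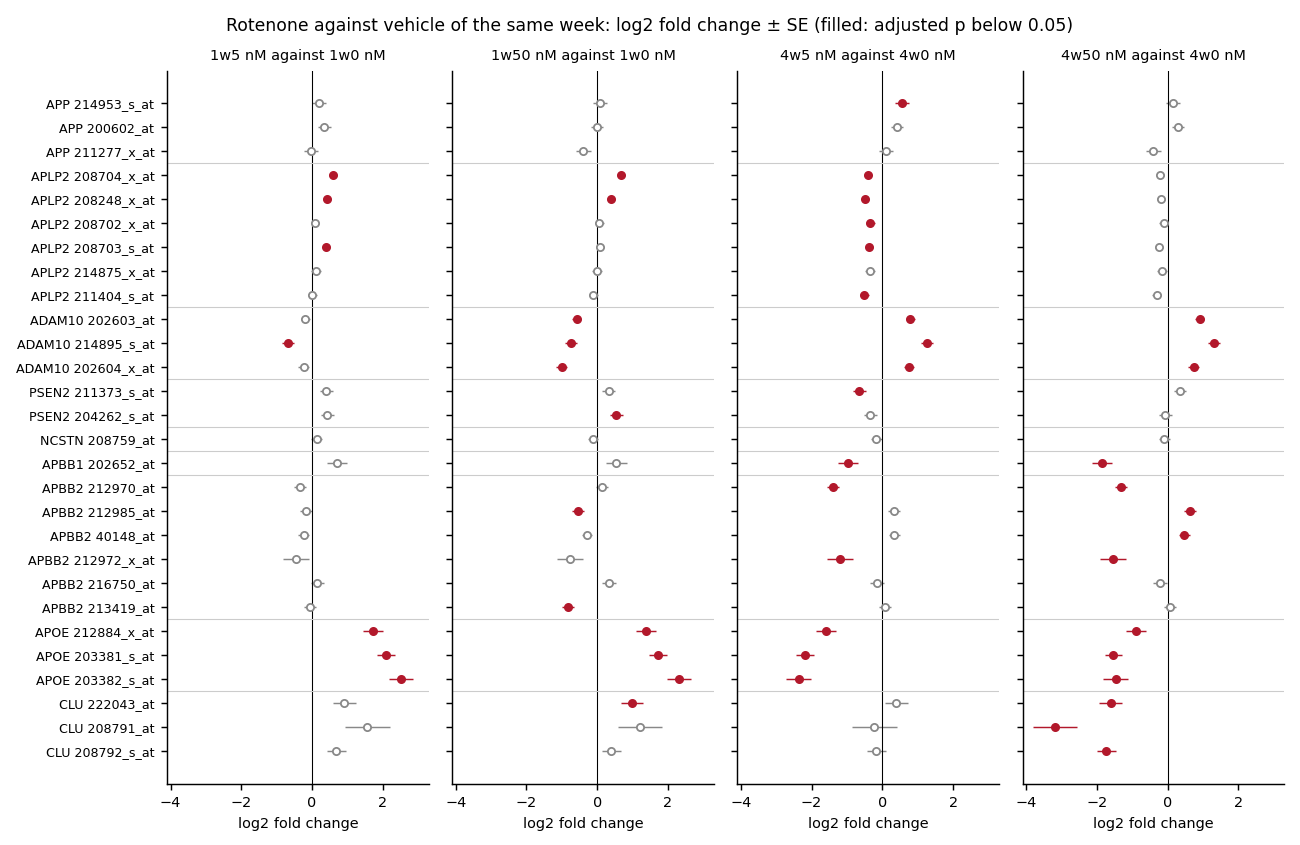
Log2 fold change (x axis, ± SE from limma) of the 28 tested probe sets (rows, grouped by gene) in rotenone cells against vehicle cells of the same week, 3 arrays a group; filled points passed the adjusted threshold. The 3 APOE probe sets lie to the right of 0 at 1 week and to its left at 4 weeks, the 3 ADAM10 probe sets run the other way, and APBB2 has probe sets on both sides at 4 weeks.

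APP itself, one of the brightest members, was called against vehicle on 1 of its 3 probe sets, in 4w5 nM cells. On the 4w5 nM arrays probe set 214953_s_at read 2100, 1782 and 2388, against 1297, 1485 and 1471 on the 4w0 nM arrays, so that every 4w5 nM array lay above every 4w0 nM array. The difference was a log2 fold change of 0.55 (SE 0.19, adjusted p = 0.0303). It rested on few arrays: without any of 4w0 nM replicates 1, 2 or 3 or 4w5 nM replicates 1 or 3 the adjusted p was above the threshold, at up to 0.109, and over all settings tried it ran from 0.000116 to 0.15. APP 200602_at read 0.41 higher (adjusted p = 0.0675) and 211277_x_at 0.09 higher (adjusted p = 0.769), and neither was called. The first of these was called, however, without 1w0 nM replicate 2 or 3 and under 4 of the other settings, such as array weights, within a range of 0.0021 to 0.264 over all settings. In 4w50 nM cells APP 214953_s_at averaged 1572 ± 58.3, against 1418 ± 105 in 4w0 nM cells (SD, n = 3 each), a log2 fold change of 0.15 that was not called (adjusted p = 0.544). The other APP probe sets went opposite ways there without overlapping vehicle, and neither was called. Probe set 200602_at read 1856, 1723 and 1565, against 1172, 1509 and 1542 in 4w0 nM cells (0.29). For 211277_x_at the signals were 154, 168 and 143, against 201, 221 and 191 (−0.40). At 1 week 1w0 nM replicate 2 stood at 1940 and its replicates at 1068 and 1037, and no APP probe set was called at either dose. Without that array 2 APP probe sets were called in 1w5 nM cells, 200602_at (log2 fold change 0.60, adjusted p = 0.0134, range over all settings 0.0134 to 0.884) and 214953_s_at (0.48, adjusted p = 0.0416, range 0.0416 to 0.932).

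APLP2, which encodes an amyloid precursor-like protein that the same secretases cut, took opposite directions at the 2 times on its probe set of highest mean signal. Probe set 208704_x_at read 1618, 1987 and 1594 on the 1w5 nM arrays, against 1120, 1046 and 1298 on the 1w0 nM arrays. It read 1951, 1873 and 1626 on the 1w50 nM arrays, so that neither dose overlapped the vehicle. The rise was 1.5-fold in 1w5 nM cells (log2 fold change 0.58, SE 0.11, adjusted p = 0.00451) and 1.57-fold in 1w50 nM cells (0.66, SE 0.11, adjusted p = 0.00074), and both calls held without each array in turn. On the 4w5 nM arrays the same probe set read 1132, 1296 and 1144, against 1564, 1633 and 1590 on the 4w0 nM arrays. All 3 arrays lay below the vehicle, a fall of 0.42 on the log2 scale (SE 0.11, adjusted p = 0.00676). In 4w50 nM cells it averaged 1366 ± 46.6, against 1595 ± 35.1 in 4w0 nM cells, a log2 fold change of −0.22 that was not called (adjusted p = 0.11). The 4w50 nM arrays, at 1363, 1414 and 1321, nonetheless lay below every 4w0 nM array.

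The other APLP2 probe sets bear on these results unevenly. In 4w5 nM cells 5 of the 6 tested were lower, with log2 fold changes from −0.51 (211404_s_at, adjusted p = 0.00717) to −0.34 (208702_x_at, adjusted p = 0.0317), and the sixth, 214875_x_at, read −0.35 (adjusted p = 0.0674). The call for 208702_x_at was lost without any 4w0 nM array or without 4w5 nM replicates 1 or 2 (adjusted p up to 0.122), and that for 208703_s_at without 4w5 nM replicate 1 (0.0503). At 1 week 208248_x_at was higher at both doses (0.41 and 0.39, adjusted p = 0.0367 and 0.0207) and 208703_s_at was called in 1w5 nM cells (0.40, adjusted p = 0.0261). Both 1w5 nM calls ended when the 2 doubtful arrays were exchanged, and each depended on single arrays: 208248_x_at on 1w0 nM replicate 2, 1w5 nM replicates 2 and 3 and 4w0 nM replicate 2 (adjusted p up to 0.204), and 208703_s_at on 1w0 nM replicate 2 and each 1w5 nM array (up to 0.119). In 1w50 nM cells 208248_x_at lost its call without 1w0 nM replicate 2 or 1w50 nM replicates 1 or 2 (up to 0.0764). Probe set 208703_s_at was not called there, at a mean of 910 against 862 in 1w0 nM cells. The remaining tested probe sets stayed near vehicle at 1 week and were not called. In 1w0, 1w5 and 1w50 nM cells 208702_x_at averaged 1036, 1084 and 1072. For 214875_x_at the means were 676, 721 and 669, and for 211404_s_at 606, 604 and 560. Over the 18 arrays the log2 signals of APLP2 probe sets correlated with each other at 0.23 to 0.90.

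ADAM10, the main α-secretase in neurons, rose on all 3 of its probe sets at both doses at 4 weeks. Probe set 202603_at read 747, 657 and 682 on the 4w5 nM arrays, against 368, 437 and 405 on the 4w0 nM arrays. On the 4w50 nM arrays it read 866, 763 and 652. No rotenone array of 4 weeks overlapped the vehicle, and the rise was 1.73-fold in 4w5 nM cells (0.79, SE 0.13, adjusted p = 0.000274) and 1.88-fold in 4w50 nM cells (0.91, SE 0.13, adjusted p = 4.88e-05). Probe set 214895_s_at had 310, 262 and 323 in 4w5 nM cells and 325, 281 and 315 in 4w50 nM cells, against 124, 126 and 120 in 4w0 nM cells. Its increase was 2.41-fold and 2.49-fold at the 2 doses, the largest of the 3 probe sets. The third, 202604_x_at, rose by 0.75 and 0.74 on the log2 scale (adjusted p = 0.00145 and 0.00109). All 6 of these calls held without each array in turn.

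At 1 week ADAM10 lay on the other side of vehicle. On the 1w50 nM arrays 202603_at read 300, 321 and 345, against 495, 541 and 417 on the 1w0 nM arrays, with no overlap (log2 fold change −0.58, SE 0.13, adjusted p = 0.00496). The other probe sets, 214895_s_at and 202604_x_at, were lower by 0.74 and 1.01 (adjusted p = 0.00636 and 0.000392). In 1w5 nM cells 202603_at averaged 423 ± 3.37, against 484 ± 62.7 in 1w0 nM cells, which was not called (adjusted p = 0.411). Only 214895_s_at was lower there (−0.69, adjusted p = 0.0236), and that call was lost without 1w0 nM replicate 2 or 1w5 nM replicates 2 or 3 (up to 0.128) and with the 2 doubtful arrays exchanged. The log2 signals of the 3 ADAM10 probe sets correlated with each other at 0.89 to 0.95 over the 18 arrays. From low to high the groups ran from 1w50 nM through 4w0 nM, then 1w5 nM and 1w0 nM, to 4w5 nM and last 4w50 nM, and of the steps between neighbours in that order only that from 1w0 nM to 4w5 nM was called (0.53, adjusted p = 0.00725).

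The promoters of ADAM10, of APBB1 and of APOE are shown because ADAM10 rose and APBB1 and APOE fell at both doses at 4 weeks with no disagreement between their probe sets. Each run covers 250 bases before and 50 after the gene start in GRCh38.p14, on the strand of the gene, at chr15:58749658-58749957 (minus strand) for ADAM10, chr11:6419062-6419361 (minus strand) for APBB1 and chr19:44905546-44905845 (plus strand) for APOE. Capitals mark every match, on either strand, to the GC box GGGCGG, the CCAAT box, the TATA box TATAAA, the E-box CACGTG, the GGAA repeat GGAAGGAA (of the kind that EWS-FLI1 binds) and the cyclic AMP response element TGACGTCA.
ADAM10: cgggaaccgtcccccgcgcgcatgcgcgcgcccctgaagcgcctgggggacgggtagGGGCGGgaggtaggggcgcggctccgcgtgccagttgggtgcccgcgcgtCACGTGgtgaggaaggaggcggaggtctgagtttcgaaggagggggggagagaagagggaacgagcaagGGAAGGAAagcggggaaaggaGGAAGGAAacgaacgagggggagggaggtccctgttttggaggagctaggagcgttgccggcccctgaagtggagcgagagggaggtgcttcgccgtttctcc
APBB1: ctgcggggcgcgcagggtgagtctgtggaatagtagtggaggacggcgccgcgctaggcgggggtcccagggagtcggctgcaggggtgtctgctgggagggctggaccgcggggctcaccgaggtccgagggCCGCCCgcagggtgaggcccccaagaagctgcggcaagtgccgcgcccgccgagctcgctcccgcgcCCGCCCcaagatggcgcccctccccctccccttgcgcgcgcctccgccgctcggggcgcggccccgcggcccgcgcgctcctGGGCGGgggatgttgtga
APOE: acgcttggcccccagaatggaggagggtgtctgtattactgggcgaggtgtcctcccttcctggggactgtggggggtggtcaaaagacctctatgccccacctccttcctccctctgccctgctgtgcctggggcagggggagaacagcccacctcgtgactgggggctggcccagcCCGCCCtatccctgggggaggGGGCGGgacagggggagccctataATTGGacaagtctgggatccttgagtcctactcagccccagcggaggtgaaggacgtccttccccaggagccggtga
The ADAM10 run held 1 GC box, 1 E-box and 2 GGAA repeats, and the repeat occurs in 3.67% and the E-box in 7.26% of all 35116 RefSeq promoter windows of this length. The APBB1 run held 3 GC boxes, a motif found in 45% of all windows, with a GC content of 77.3%. The APOE run held 2 GC boxes and 1 CCAAT box, on the reverse strand, and a CCAAT box occurs in 34.6% of all windows. No matches overlapped, and a match describes letters and not a bound site. Of the 9 members 8 had an entry in the promoter table, all but CLU.

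Among the other secretase genes 7 of 11 were tested, and those that changed at 4 weeks were ADAM9 and BACE2. ADAM9, a related protease with α-secretase activity, averaged 639 ± 51.5 in 4w5 nM cells and 535 ± 104 in 4w50 nM cells, against 283 ± 15.4 in 4w0 nM cells. It thus rose along with ADAM10 at both doses (1.17 and 0.90, adjusted p = 0.000736 and 0.0035), and like ADAM10 it was lower in 1w50 nM than in 1w0 nM cells (−0.78, adjusted p = 0.0174). BACE2, a homologue of the β-secretase that cuts within amyloid β, averaged 72.8 ± 28.6 in 4w50 nM cells, against 359 ± 16.7 in 4w0 nM cells, a 5.18-fold fall (adjusted p = 0.00104). No other secretase gene was called at either dose or week, and the median log2 fold change of the 7 was 0.21 at 5 nM and 0.01 at 50 nM after 4 weeks, beside 0.03 and 0.02 for all genes.

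PSEN2, which encodes the catalytic presenilin 2 of some γ-secretase complexes, differed between the 2 doses at 4 weeks. Probe set 211373_s_at read 64.3, 56.7 and 63.2 on the 4w5 nM arrays, against 97.4, 102 and 90.1 on the 4w0 nM arrays. On the 4w50 nM arrays it read 140, 114 and 115. The 3 groups did not overlap, with the lower dose below vehicle and the higher dose above it. The fall in 4w5 nM cells was called (−0.65, SE 0.18, adjusted p = 0.00872), the difference of 0.35 in 4w50 nM cells was not (adjusted p = 0.122), and the 4w50 nM mean exceeded the 4w5 nM mean by 1.00 on the log2 scale (SE 0.18, adjusted p = 0.00127). The 4w50 nM difference from vehicle was called without 1w0 nM replicate 3 (adjusted p = 0.0427, range over all settings 0.013 to 0.36). The dimmer probe set 204262_s_at, at 41.1 to 72.2 over all arrays, was not called at 4 weeks (−0.34 and −0.06). It was called higher in 1w50 nM cells (0.54, adjusted p = 0.0452), but this was lost without any one of 12 arrays (adjusted p up to 0.106), among them all 3 of 1w0 nM and all 3 of 1w50 nM, and with the exchange. The 2 PSEN2 probe sets correlated at 0.43.

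NCSTN, for nicastrin, the γ-secretase subunit that receives substrates, was the flattest member. Its probe set lay between 152 and 223 on all 18 arrays, and all groups overlapped. It averaged 176 ± 23.2 in 4w5 nM cells and 186 ± 18.1 in 4w50 nM cells, against 197 ± 16.5 in 4w0 nM cells, and 203 ± 17.3 in 1w5 nM cells and 171 ± 20.2 in 1w50 nM cells, against 187 ± 29.3 in 1w0 nM cells. The log2 fold changes against vehicle ran from −0.17 to 0.13 with an SE of 0.15, and no comparison was called.

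APBB1 encodes FE65, the adaptor that can carry the amyloid precursor tail to the nucleus. It has a single probe set, 202652_at, which read 37.7, 32.6 and 70.2 on the 4w50 nM arrays, against 161, 160 and 157 on the 4w0 nM arrays. On the 4w5 nM arrays it read 53.2, 98.7 and 102. All 6 rotenone arrays lay below vehicle, while the 2 doses overlapped each other. The fall was 3.61-fold in 4w50 nM cells (−1.85, SE 0.29, adjusted p = 0.000109) and 1.97-fold in 4w5 nM cells (−0.98, SE 0.29, adjusted p = 0.0163). The second of these depended on 4w5 nM replicate 1, without which it was −0.67 (adjusted p = 0.102, range over all settings 2.69e-06 to 0.135). The 2 doses differed by −0.88 (adjusted p = 0.0486), a call lost without any one of 13 arrays (up to 0.212), among them 4w5 nM replicates 2 and 3 and 4w50 nM replicates 1 and 2, and with the 2 doubtful arrays exchanged (0.0516). At 1 week APBB1 averaged 161 ± 35.7 in 1w5 nM cells and 143 ± 16.4 in 1w50 nM cells, against 102 ± 32.5 in 1w0 nM cells, and neither difference was called (0.70 and 0.54, adjusted p = 0.16 and 0.198).

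APBB2, for the related adaptor FE65L1, has 7 probe sets that did not move together. Probe set 212970_at read 161, 154 and 128 on the 4w5 nM arrays and 142, 143 and 183 on the 4w50 nM arrays, against 357, 424 and 390 on the 4w0 nM arrays. Every rotenone array lay far below every vehicle array, and the falls were 2.65-fold in 4w5 nM cells (−1.41, SE 0.17, adjusted p = 1.43e-05) and 2.52-fold in 4w50 nM cells (−1.33, SE 0.17, adjusted p = 1.53e-05). Probe set 212972_x_at was also lower, at 37.7, 140 and 32.4 on the 4w50 nM arrays and 74, 86 and 55.4 on the 4w5 nM arrays, against 163, 190 and 138 on the 4w0 nM arrays. Replicate 2 of 4w50 nM reached into the vehicle range, and the log2 fold change was −1.55 (adjusted p = 0.0026) with all arrays and −2.22 without that one. In 4w5 nM cells the fall of 1.20 (adjusted p = 0.0171) lost its call without 4w0 nM replicate 2 or 4w5 nM replicate 3 (up to 0.0677).

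Probe set 212985_at went the other way, reading 367, 265 and 332 on the 4w50 nM arrays, against 206, 213 and 196 on the 4w0 nM arrays. This was a rise of 0.63 (SE 0.17, adjusted p = 0.00784) with no overlap, and 40148_at rose beside it by 0.47 (adjusted p = 0.0217). The call for 40148_at was lost without 4w0 nM replicates 2 or 3 or 4w50 nM replicates 1 or 3 (up to 0.0844). In 4w5 nM cells both probe sets read 0.34 higher and neither was called (adjusted p = 0.151 and 0.096). Over the 18 arrays 212970_at correlated with 212972_x_at at 0.70 and with 212985_at and 40148_at at −0.70 and −0.74, whereas the last 2 correlated at 0.93. At 1 week the falling probe sets of 4 weeks were not called, while 213419_at read 44.2, 42.8 and 50.9 on the 1w50 nM arrays, against 95, 82.5 and 69.5 on the 1w0 nM arrays, without overlap (−0.83, SE 0.17, adjusted p = 0.00308). With the exchange this call ended, as did that for 212985_at (−0.54, adjusted p = 0.034), which was also lost without 1w0 nM replicates 1 or 2 or 1w50 nM replicates 1 or 2 (up to 0.183). The direction given for APBB2 therefore depends on which probe set is read. Around APBB2 on chromosome 4 the 40 nearest measured genes changed by a median of 0.21 at 5 nM and 0.27 at 50 nM after 4 weeks, on the log2 scale, beside its own −1.41 and −1.33 on 212970_at.

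**Figure D2:**
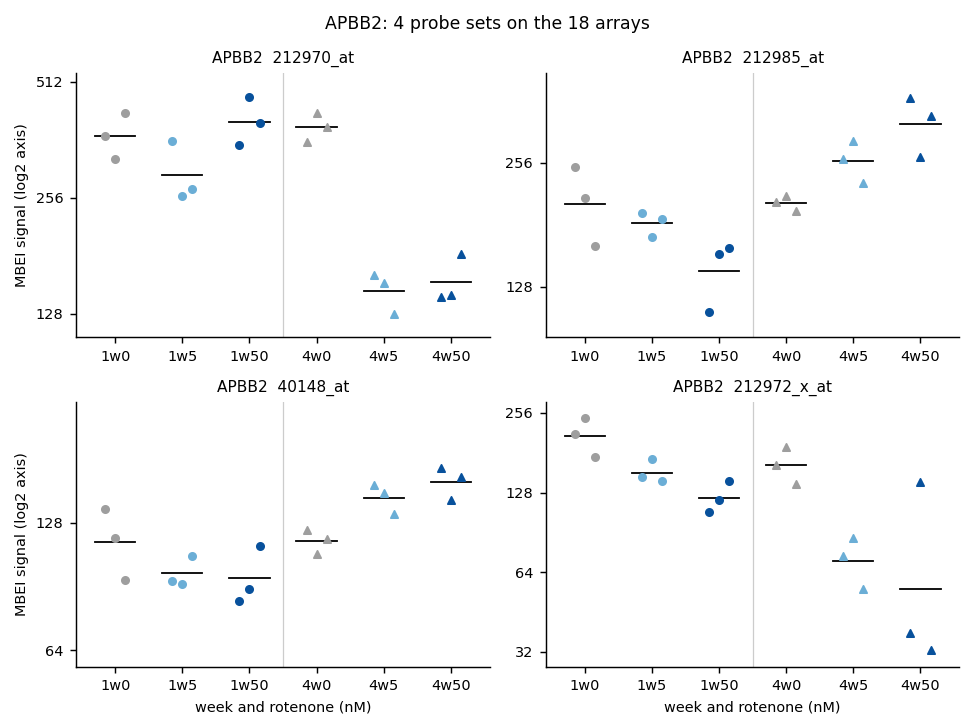
MBEI signal (log2 axis) of 4 APBB2 probe sets on the 18 arrays by week and rotenone dose in nM; each point is an array and each bar the mean of the log2 signals of a group. At 4 weeks 212970_at and 212972_x_at lie below vehicle with rotenone, except 4w50 nM replicate 2 of 212972_x_at at 140, while 212985_at and 40148_at lie above it.

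APOE, which encodes the main lipid carrier protein of the brain, lay on opposite sides of vehicle at the 2 times. On the 1w5 nM arrays 212884_x_at read 813, 1107 and 838, against 203, 312 and 340 on the 1w0 nM arrays. On the 1w50 nM arrays it read 750, 685 and 744. Every rotenone array of 1 week was far brighter than the brightest vehicle array, and the rise was 3.27-fold in 1w5 nM cells (1.71, SE 0.28, adjusted p = 0.00152) and 2.61-fold in 1w50 nM cells (1.38, SE 0.28, adjusted p = 0.0026). The probe sets 203381_s_at and 203382_s_at rose 4.24-fold and 5.71-fold in 1w5 nM cells and 3.27-fold and 4.95-fold in 1w50 nM cells. All 6 calls held without each array in turn and with the exchange.

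At 4 weeks APOE was lower than in vehicle cells. On the 4w5 nM arrays 212884_x_at read 196, 171 and 303, against 539, 679 and 779 on the 4w0 nM arrays. All 3 lay below vehicle and the fall was 3.04-fold (−1.60, SE 0.28, adjusted p = 0.000379). Probe set 203381_s_at read 90.6, 75.1 and 119, against 419, 426 and 431 in 4w0 nM cells, a 4.56-fold fall (adjusted p = 1.15e-05), and 203382_s_at fell 5.17-fold (adjusted p = 0.00011).

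In 4w50 nM cells the fall was smaller and the replicates divided. Probe set 212884_x_at read 467, 458 and 211 on the 4w50 nM arrays, so that replicate 3 lay within the 4w5 nM range and the other two between that range and vehicle. The fall was 1.85-fold (−0.89, adjusted p = 0.0166), and it was not called without 4w50 nM replicate 3 (−0.51, adjusted p = 0.108) or without 4w0 nM replicate 3, over a range of 0.000659 to 0.13 for all settings. The other probe sets fell 2.88-fold (203381_s_at, adjusted p = 0.000147) and 2.78-fold (203382_s_at, adjusted p = 0.003), and these calls held without each array. The difference between 4w50 nM and 4w5 nM was 0.72, 0.66 and 0.89 on the 3 probe sets with adjusted p of 0.0869, 0.0782 and 0.092. Without 4w50 nM replicate 3, or without 4w5 nM replicate 3, all 3 were called (the lead at 1.10, adjusted p = 0.00606, without the first of these arrays), and 203381_s_at also without 1w0 nM replicate 3. The adjusted p of the lead ran from 2.87e-05 to 0.46 over all settings.

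The vehicle groups of the 2 times also differed in APOE. It averaged 666 ± 121 in 4w0 nM cells, against 285 ± 72 in 1w0 nM cells (1.24, adjusted p = 0.0181), a call lost without 1w0 nM replicate 1 or 4w0 nM replicates 2 or 3 (up to 0.101). The other 2 probe sets were higher by 1.85 and 1.99 (adjusted p = 0.000294 and 0.00357), without exception over the arrays left out. From low to high the groups on the lead probe set ran 4w5 nM, 1w0 nM, 4w50 nM, 4w0 nM, 1w50 nM and 1w5 nM, and of the steps between neighbours only that from 4w50 nM to 4w0 nM was called. The 3 probe sets correlated with each other at 0.98 to 0.99 over the 18 arrays, and all 3 gave the same direction in each comparison with vehicle. The 40 measured genes nearest to APOE on chromosome 19 had medians near 0, of 0.11 and 0.09 at 5 and 50 nM after 1 week and of −0.08 and −0.15 after 4 weeks.

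Fibroblast marker genes moved with APOE, and some other marker lists did so in part. Of 12 genes 11 were tested. At 1 week 5 were higher and none lower at each dose, beside 4.89% of all genes higher at 5 nM and 8.97% at 50 nM. The median log2 fold change was 0.82 at both. In 4w5 nM cells 1 was higher and 6 lower (median −0.66), beside 18.5% and 14.1% of all genes. In 4w50 nM cells 0 were higher and 5 lower (median −0.53), beside 23.3% and 17.6%. Their summed signal was 8881 to 9798 on the 1w5 nM arrays and 8971 to 9534 on the 1w50 nM arrays, against 6524 to 6735 on the 1w0 nM arrays. It was 5842 to 7225 on the 4w5 nM arrays and 7081 to 7463 on the 4w50 nM arrays, against 9129 to 9420 on the 4w0 nM arrays. DCN and COL1A1 read at least 280 and 392 on every array, POSTN was under 50 on all 18, and the part of these genes in the APOE result was not tested. Markers of other cell types that make APOE were mixed. Of 9 macrophage and microglia markers, 5 stayed under 50 on all arrays, CD14, CSF1R, TYROBP, FCGR1A and C1QB, whereas PTPRC ran from 63.6 to 1567 and AIF1 from 30.3 to 737. Their summed signal was 640 to 733 on the 1w5 nM arrays and 545 to 627 on the 1w50 nM arrays, against 1005 to 1348 on the 1w0 nM arrays. It was 1546 to 1753 on the 4w5 nM arrays and 707 to 1006 on the 4w50 nM arrays, against 605 to 723 on the 4w0 nM arrays. The sum thus lay opposite to APOE at 1 week and in 4w5 nM cells, whereas the 4w50 nM arrays overlapped vehicle. Only 3 of these markers were tested. Their median log2 fold change was −0.23 and −0.59 at 5 and 50 nM after 1 week, and −0.02 and −0.21 after 4 weeks. Of 8 astrocyte markers, GJA1, S100B, SLC1A2, SLC1A3 and ALDH1L1 reached 50 on all 18 arrays, GJA1 at 1736 to 2800, while GFAP reached 50 on 2 arrays and AQP4 on none. Their summed signal was 2949 to 3141 on the 1w5 nM arrays and 2838 to 3127 on the 1w50 nM arrays, against 2654 to 3256 on the 1w0 nM arrays, and 3300 to 3654 on the 4w5 nM arrays and 3342 to 4004 on the 4w50 nM arrays, against 3371 to 3388 on the 4w0 nM arrays. Of 8 hepatocyte markers 5 stayed under 50 on all arrays, ALB among them, and the list summed to at most 294 on any array. Marker lists of other kinds followed APOE in part. In 1w5 nM and 1w50 nM cells neuron markers summed to 3155 to 3506 and 3115 to 3411, against 1989 to 2732 in 1w0 nM. In 4w5 nM and 4w50 nM cells they summed to 1533 to 3277 and 2031 to 2368, against 3107 to 3496 in 4w0 nM. Summed noradrenergic markers lay above vehicle at both doses at 1 week, and summed Schwann cell markers below it at both doses at 4 weeks. Of 7 Schwann cell markers only 3 were measured, SOX10, S100B and NGFR. SOX10 was under 50 on all 18 arrays, and S100B also counts among the astrocyte markers. The part of any of these genes in the APOE result was not tested either.

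**Figure D3:**
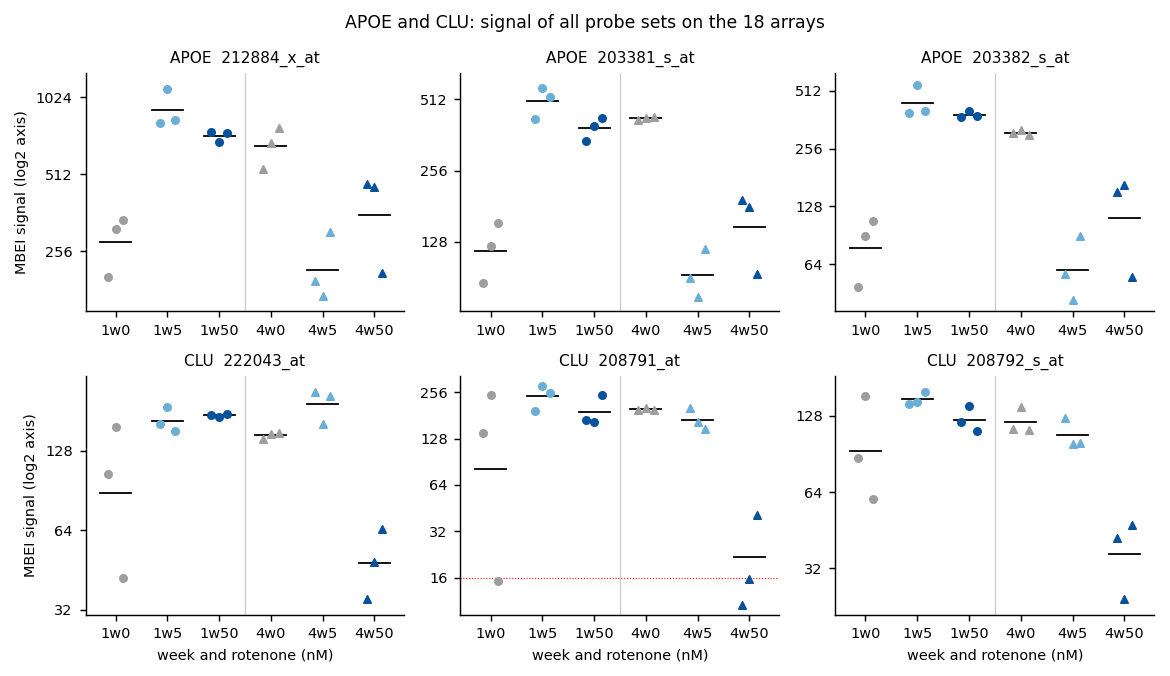
MBEI signal (log2 axis) of the 3 APOE and the 3 CLU probe sets on the 18 arrays by week and rotenone dose in nM; points are arrays, bars the mean log2 signal of a group, and the dotted line the floor of 16. All APOE probe sets lie above vehicle at 1 week and below it at 4 weeks, and all CLU probe sets are low in 4w50 nM cells.

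CLU, which encodes clusterin, a secreted chaperone that binds amyloid β and other unfolded proteins, was low in 4w50 nM cells. Probe set 222043_at read 35.3, 48.7 and 64.6 on the 4w50 nM arrays, against 142, 148 and 150 on the 4w0 nM arrays. On the 4w5 nM arrays it read 213, 162 and 206. The 4w50 nM arrays overlapped neither, and the fall was 3.05-fold against vehicle (−1.61, SE 0.32, adjusted p = 0.000682) and 4-fold against 4w5 nM cells (−2.00, SE 0.32, adjusted p = 0.000692). Probe set 208791_at read 10.6, 15.7 and 40.6 on the 4w50 nM arrays, against 196, 203 and 197 on the 4w0 nM arrays. It fell by 3.18 on the log2 scale (adjusted p = 0.000739), a value that understates the change, since 2 of these arrays lay under the floor of 16. The log2 fold change was −3.39 with a floor of 8 and −2.52 with a floor of 32. The third, 208792_s_at, fell 3.31-fold (adjusted p = 0.000101), and all 3 calls held without each array. In 4w5 nM cells no CLU probe set was called against vehicle (0.39, −0.23 and −0.17, adjusted p = 0.364, 0.813 and 0.671).

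At 1 week the CLU calls depended on single arrays. On the 1w0 nM arrays 222043_at read 105, 157 and 42.3, whereas it read 175, 172 and 177 on the 1w50 nM arrays and 162, 188 and 152 on the 1w5 nM arrays. The 1w50 nM arrays all lay above vehicle (0.98, SE 0.32, adjusted p = 0.0343), a call lost without 1w0 nM replicate 3 (0.45, adjusted p = 0.0977) and without each 1w50 nM array, within a range of 0.00417 to 0.427 over all settings. The 1w5 nM difference of 0.91 was not called (adjusted p = 0.0881), but was without 1w0 nM replicate 2 (1.32, adjusted p = 0.00966, range 0.00966 to 0.652), as were the other 2 CLU probe sets there and, in 1w50 nM cells, at adjusted p of 0.0138 to 0.0366. The 3 CLU probe sets correlated at 0.87 to 0.95 over the 18 arrays.

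Genes near CLU were lower as well. Among the 40 measured genes nearest to it on chromosome 8, 26 were lower and 1 was higher at 50 nM than at 5 nM after 4 weeks, and the median was −0.91 on the log2 scale. Over all 359 genes of chromosome 8 the median was −0.50, and over the 9162 genes of the array it was 0.01. Against 4w0 nM the neighbours had a median of −0.56 in 4w50 nM cells (0 higher, 12 lower) and of 0.50 in 4w5 nM cells (12 higher, 2 lower). The part of this shift of the region in the CLU result was not tested.

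**Figure D4:**
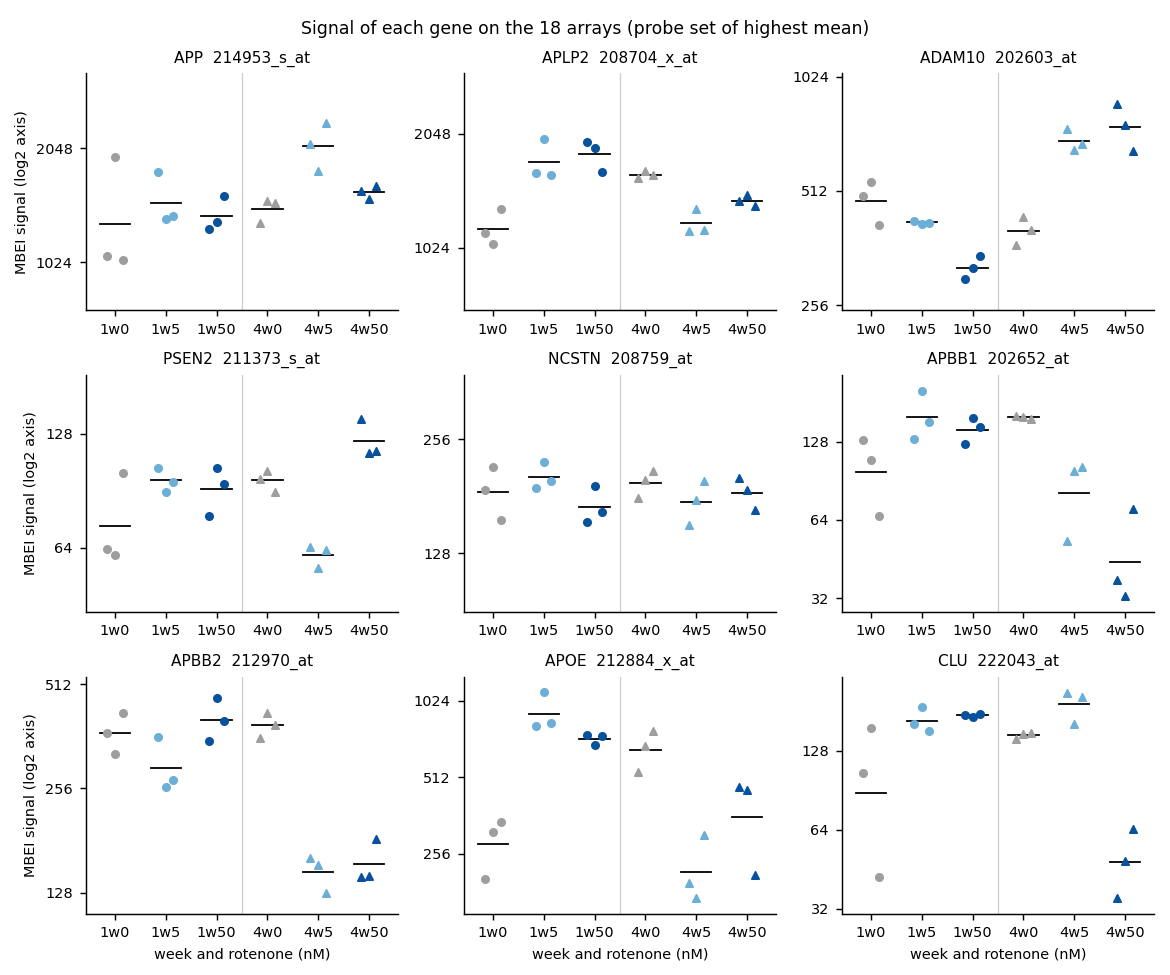
MBEI signal (log2 axis) of the 9 genes, each from its probe set of highest mean, on the 18 arrays by week and rotenone dose in nM; points are arrays and bars the mean log2 signal of a group. APOE and APLP2 are above vehicle at 1 week and below it at 4 weeks (APLP2 in 4w50 nM cells was not called), ADAM10 runs the other way, APBB1 and APBB2 are low with rotenone at 4 weeks, CLU is low in 4w50 nM cells, and NCSTN stays between 152 and 223.

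The effect of a dose was tested against time directly, as the difference between its 4-week and its 1-week effect. For 5 nM, 4 of the 28 probe sets were higher and 11 lower (53.6%, background 32.3%), and for 50 nM 6 were higher and 10 lower (57.1%, background 45.2%). By gene, 6 of 9 differed at each dose, beside 32.4% and 44.7% of all genes. APOE had the largest difference at 5 nM, −3.31 (SE 0.39, adjusted p = 1.53e-05), against −2.27 (SE 0.39, adjusted p = 0.000176) at 50 nM. ADAM10 differed by 0.97 (adjusted p = 0.000824) at 5 nM and 1.49 (adjusted p = 9.13e-06) at 50 nM, and APLP2 by −1.01 and −0.88 (adjusted p = 0.000161 and 0.000204). APBB1 differed by −1.67 and −2.39 (adjusted p = 0.00543 and 0.000178). PSEN2 was called at 5 nM (−1.05, adjusted p = 0.00404) and not at 50 nM (0.03, adjusted p = 0.933), and CLU was called at 50 nM (−2.59, adjusted p = 0.000173) and not at 5 nM (−0.52, adjusted p = 0.401), though whether the doses differed in this was not tested. The other PSEN2 probe set, 204262_s_at, was also called at 5 nM (−0.77, adjusted p = 0.0319), but not without any one of 1w5 nM replicates 1 and 2, 4w0 nM replicates 2 and 3 and 4w5 nM replicates 2 and 3 (adjusted p up to 0.0866). For APP and NCSTN the effects of the 2 times were not told apart at either dose. All these differences rest in part on the 1w0 nM arrays, and those named as called, except that of PSEN2 204262_s_at, held without each array in turn.

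Between the doses, 1w50 nM and 1w5 nM cells differed in none of the 28 probe sets by limma, beside 0.0073% of all probe sets. Of the 28, 7 had an unadjusted p below 0.05, beside 2018 of all 13705. At 4 weeks 50 nM and 5 nM differed in 5 of 28 (17.9%, background 16.6%), the 3 of CLU, 1 of PSEN2 and that of APBB1. Of these 1 was higher and 4 were lower at 50 nM, and with quantile normalization 2 were higher and 4 lower. Between the vehicle groups of 4 weeks and 1 week 5 probe sets were higher and 0 lower (17.9%, background 3.26%), the 3 of APOE and 2 of APLP2 (208704_x_at at 0.47, adjusted p = 0.022, and 208703_s_at at 0.44, adjusted p = 0.0226). Both APLP2 calls were lost without 1w0 nM replicate 2 or without any 4w0 nM array, and the first also without 1w0 nM replicate 1 (adjusted p up to 0.103 for each). That for 208703_s_at also ended with the exchange (0.0573).

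Of 14 tested genes of amyloid β breakdown and transport, 2 were higher at 5 nM and 5 at 50 nM after 1 week (beside 4.89% and 8.97% of all genes), with none lower and medians of 0.33 and 0.50 on the log2 scale. After 4 weeks 4 were lower at 5 nM and 8 at 50 nM (beside 14.1% and 17.6% of all genes), with none higher and medians of −0.21 and −0.64. The other members of the list were not called. The matrix protease gene MMP9 averaged 264 ± 20.9 in 1w5 nM cells, against 131 ± 7.21 in 1w0 nM cells, a log2 fold change of 1.00 (adjusted p = 7.76e-05), and 90.4 ± 4.35 in 4w5 nM cells, against 266 ± 13.2 in 4w0 nM cells (−1.56, adjusted p = 2.47e-07). CST3, which encodes the protease inhibitor cystatin C, a binder of amyloid β, averaged 1357 ± 156 in 1w50 nM cells, against 770 ± 165 in 1w0 nM cells (0.83, adjusted p = 0.00139), and 452 ± 47.3 in 4w5 nM cells, against 1106 ± 26.4 in 4w0 nM cells (−1.30, adjusted p = 1.46e-05). In 4w50 nM cells the lysosomal protease gene CTSB was also lower, at 309 ± 63.8 against 660 ± 18 in 4w0 nM cells (−1.11, adjusted p = 0.0194). AGER, for the receptor RAGE, was lower there (−1.29, adjusted p = 0.000533), with signals of 28.2 ± 7.59 against 67 ± 0.951. The metalloendopeptidase gene THOP1 fell by 0.92 (adjusted p = 0.00529). This list, like the others, was drawn up from general knowledge with earlier results of these data known.

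Other apolipoprotein genes did not share 1 direction. Of 8 tested, 1 was higher and 1 lower in 4w5 nM cells (median −0.25), beside 18.5% and 14.1% of all genes. In 4w50 nM cells 2 were higher and 2 lower (median −0.13), beside 23.3% and 17.6%. APOD, a lipid carrier of the lipocalin family, averaged 88.3 ± 14.5 in 4w50 nM cells, against 264 ± 20.7 in 4w0 nM cells (−1.59, adjusted p = 8.37e-05). APOL2 fell by 1.75 in 4w5 nM cells and 1.72 in 4w50 nM cells (adjusted p = 0.000188 and 0.000134) and was higher in 1w50 nM than in 1w0 nM cells (1.00, adjusted p = 0.0163). In 1w50 nM cells 2 of the 8 were higher and 1 lower (beside 8.97% and 11.4% of all genes). APOOL, whose product lies in the inner mitochondrial membrane, averaged 469 ± 108 in 4w50 nM cells, against 181 ± 18 in 4w0 nM cells (1.35, adjusted p = 2.1e-05).

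Of 25 adaptor and sorting genes, 5 were higher and 3 lower in 4w5 nM cells (beside 18.5% and 14.1% of all genes). In 4w50 nM cells 4 were higher and 6 lower (beside 23.3% and 17.6%). The medians were −0.05 and −0.04, beside 0.03 and 0.02 for all genes. CD2AP, an adaptor in endocytosis, averaged 797 ± 97.3 in 4w50 nM cells, against 288 ± 16.3 in 4w0 nM cells (1.46, adjusted p = 4.72e-06). PICALM, which helps to assemble clathrin coats, rose by 0.63 at 5 nM and 0.90 at 50 nM after 4 weeks (adjusted p = 0.00155 and 5.51e-05), and VPS26A, a retromer subunit that returns cargo from endosomes to the Golgi, by 0.58 and 0.78 (adjusted p = 0.000456 and 2.49e-05). DAB2, a clathrin adaptor, fell by 1.13 in 4w50 nM cells (adjusted p = 0.0141). At 1 week 3 of the 25 were higher and 0 lower at 5 nM (beside 4.89% and 1.59% of all genes). At 50 nM 3 were higher and 3 lower (beside 8.97% and 11.4%). BIN1 and SHC1 were higher at both doses then, BIN1 by 0.84 at 5 nM and 0.88 at 50 nM (adjusted p = 0.00881 and 0.00244) and SHC1, an adaptor of growth factor receptors, by 0.74 and 0.72 (adjusted p = 0.00232 and 0.00111).

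Of 18 lipoprotein receptor and cholesterol carrier genes, 1 was higher and 3 lower in 4w5 nM cells (beside 18.5% and 14.1% of all genes). In 4w50 nM cells 2 were higher and 3 lower (beside 23.3% and 17.6%). LRP4, a receptor of the low-density lipoprotein family, averaged 179 ± 33.7 in 4w50 nM cells, against 96.9 ± 9.98 in 4w0 nM cells (0.87, adjusted p = 0.000784). The phospholipid transfer protein gene PLTP fell by 0.46 at each dose after 4 weeks (adjusted p = 0.00845 at 5 nM and 0.00576 at 50 nM). Of 16 other γ-secretase substrates and Notch targets, 0 were higher and 2 lower in 4w5 nM cells (beside 18.5% and 14.1% of all genes). In 4w50 nM cells 4 were higher and 5 lower (beside 23.3% and 17.6%). In 1w5 nM cells 2 were higher and 1 lower (beside 4.89% and 1.59%). HES1, a transcription factor that Notch induces, averaged 981 ± 98.5 in 1w5 nM cells, against 503 ± 249 in 1w0 nM cells (1.09, adjusted p = 0.0155).

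**Figure D5:**
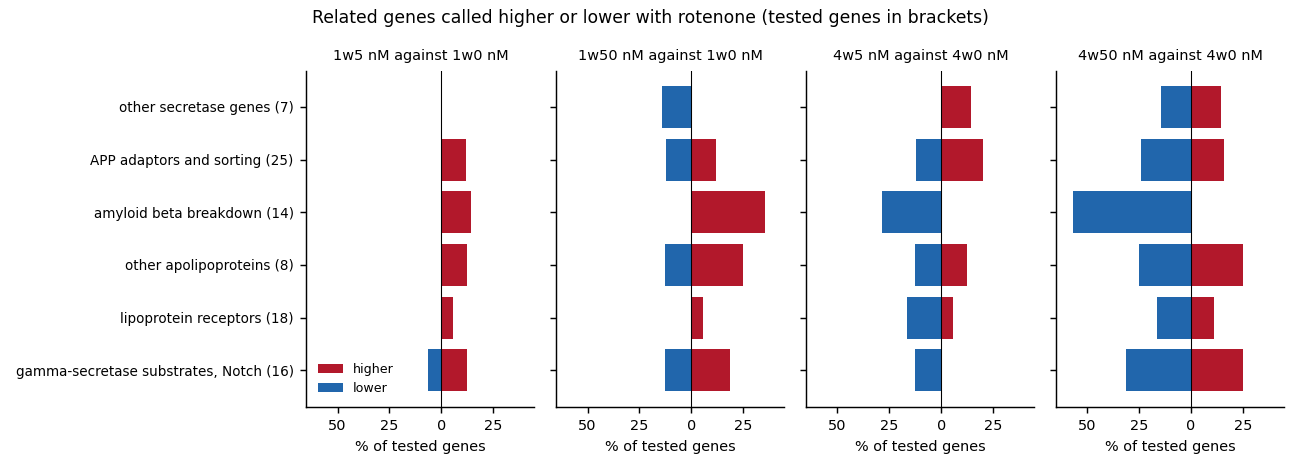
Share of the tested genes of each list (x axis, percent; number tested in brackets) called higher (right) or lower (left) in rotenone cells against vehicle cells of the same week. Genes of amyloid β breakdown are called only to the right at 1 week and only to the left at 4 weeks, and the other lists are mixed at 50 nM and 4 weeks.

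Over the 18 arrays, which fall into 6 groups and so are not independent points, some members ran closely together and some in opposition. The log2 signals of APOE and APLP2 correlated at 0.85 and those of APBB1 and CLU at 0.71. ADAM10 correlated at −0.78 with APBB1. With APBB2 its sign depended on the probe set, at −0.88 with 212970_at and at 0.89 and 0.86 with 212985_at and 40148_at. Among the lead probe sets of 9153 other genes, ISG15 (0.95), PARP12 (0.93) and UTS2 (0.92) were most like APOE, and UTS2 (0.94), DLK1 (0.93) and AGPAT1 (0.93) most like APLP2. PLIN2 (0.97), ADRB3 (0.97) and NRG1 (0.96) were nearest to CLU, and RLIG1 (0.99), RNF111 (0.99) and POT1 (0.98) to ADAM10. For APBB1 the nearest were CD79A (0.97), GANAB (0.95) and WASF2 (0.95), for APBB2 ESR2 (0.98), MAML3 (0.97) and IL23A (0.96), and for PSEN2 ANKMY2 (0.95), TES (0.92) and BAG1 (0.92).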

How the data were processed

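RNA pooled from 5 dishes per experiment was hybridized to 1 array per sample, for 18 arrays in 6 groups of 3. The deposited values are linear intensities, which the authors normalized between arrays and summarised per probe set as model-based expression indices in dChip; the normalization method is not given in the sources used here. The table held 22283 probe sets, of which 68 were controls, and signals of 0.46 to 11258.4. By the platform annotation, with symbols updated to RefSeq, 19065 named 1 gene, 1043 named several and 2107 named none, and genes were read only from the first kind. Scanner-level intensities were not used here, so probe-level background and the behaviour of single probes could not be examined. The number of arrays limits the precision.

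Signals below 16 were set to 16, log2 was taken, and probe sets that reached a signal of 50 on 3 or more arrays were tested (13705 probe sets of 9162 genes). A linear model with the 6 groups was fitted to all 18 arrays in limma (version 3.58.1, R 4.3.3), with an intensity trend in the moderated variance and 12 residual degrees of freedom, and p-values were adjusted by the Benjamini-Hochberg method over all probe sets within each comparison. The doses were compared with the vehicle cells harvested at the same week, and further comparisons were 50 nM against 5 nM, later against earlier vehicle, and the difference of a dose effect between the weeks. The fit was tested on simulated data. Tables and figures were made in Python 3.11.15 (pandas 2.3.3, numpy 2.4.6, matplotlib 3.10.9).

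All 9 members are named. No values are given in the text for APBB2 216750_at, which was not called against vehicle at either week. The same holds for the untested APLP2 208701_at, PSEN2 204261_s_at and APBB2 216747_at. From each list of related genes, counts are given, with up to 4 called genes of largest log2 fold change per comparison, and for each member with a called change of at least 2-fold the 3 other genes of highest correlation. The members and lists were chosen with earlier results of these data known. Alternatives were other floors, a pseudocount of 16, quantile normalization, median scaling, no filter or a stricter one, a variance without the trend, weighted arrays, the replicate number as a block, the compared groups by themselves, 1 value per gene, the methods' t-test, exchange of the 2 doubtful arrays, and leaving out each array.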

Additional observations from a re-analysis of the deposited data

Results flagged for a closer look

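The results below were singled out because limma's interaction test found that the effect of a rotenone dose differed between 4 weeks and 1 week. Values are the 4-week log2 fold change against vehicle minus the 1-week one, on the probe set of highest mean signal. At 5 nM, APOE on 212884_x_at had −3.31 (adjusted p = 1.53e-05), APBB1 on 202652_at −1.67 (0.00543), APBB2 on 212970_at −1.07 (0.0023), PSEN2 on 211373_s_at −1.05 (0.00404) and APLP2 on 208704_x_at −1.01 (0.000161), while ADAM10 on 202603_at had 0.97 (0.000824). At 50 nM, CLU on 222043_at had −2.59 (adjusted p = 0.000173), APBB1 −2.39 (0.000178), APOE −2.27 (0.000176), APBB2 −1.46 (8.75e-05) and APLP2 −0.88 (0.000204), while ADAM10 had 1.49 (9.13e-06). Other APBB2 probe sets were called in the opposite direction at 50 nM, 212985_at at 1.18 (adjusted p = 0.000959), 213419_at at 0.91 (0.00588) and 40148_at at 0.75 (0.00937), of which that for 213419_at ended when the 2 doubtful arrays were exchanged (0.70, adjusted p = 0.0994). At 5 nM 40148_at had 0.59 (adjusted p = 0.0469), a call lost without any one of 13 arrays (adjusted p up to 0.127) and with the exchange. The APLP2 probe sets 208702_x_at, 208703_s_at, 214875_x_at and 211404_s_at were not called at 50 nM. With the exchange they read −0.12, −0.39, −0.07 and −0.16 there. On their probe sets of highest mean signal, APOE, APLP2 and ADAM10 lay on opposite sides of vehicle at the 2 times. The vehicle groups themselves differed in APOE and APLP2, and the part of that difference in these values was not tested. No search for single outlying arrays was made, because groups of 3 are too small for it.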

How the results depend on the processing

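Over 9 comparisons the 28 probe sets gave 90 calls in 252 tests, of which 69 were kept without each array in turn and 64 under every setting except the t-test; 43 of the 162 tests that made no call gained one without at least 1 array, and 0 calls changed sign. The numbers of member probe sets called were 7 (1w5 nM against 1w0 nM), 12 (1w50 nM against 1w0 nM), 16 (4w5 nM against 4w0 nM), 14 (4w50 nM against 4w0 nM), 0 (1w50 nM against 1w5 nM), 5 (4w50 nM against 4w5 nM), 5 (4w0 nM against 1w0 nM) and 15 and 16 for the change of the 5 nM and 50 nM effects between the weeks. Without each array in turn these ran from 4 to 9, 8 to 14, 13 to 19, 12 to 16, 0 to 2, 4 to 8, 2 to 6, 12 to 19 and 16 to 17, in the same order. With 1 probe set per gene they were 2, 4, 7, 5, 0, 3, 2, 6 and 6, and with a gene's probe sets averaged 1, 3, 6, 5, 0, 3, 2, 5 and 5, counts out of 9 genes. With the compared groups fitted by themselves, 3 were called at 5 nM and 5 at 50 nM against the 1-week vehicle, 2 between the doses at 1 week and 2 between the vehicles. Array weights gave 8 between the doses at 1 week, 14 between the doses at 4 weeks and 3 between the vehicles, and median scaling 3 between the vehicles. The methods' t-test with Benjamini-Hochberg adjustment called 0 at each dose at 1 week, 6 at each dose at 4 weeks and 0 in the other pairs. At the methods' threshold of p below 0.05 and over 2-fold it called 3, 3, 6, 8, 0, 4 and 3 in the order above, and it gives no test of a change between weeks. Exchange of the 2 doubtful arrays left 4 calls in 1w5 nM cells. A fit on the 5 groups other than 1w0 nM, chosen after seeing the data, gave 18 and 17 calls against vehicle for 5 nM and 50 nM at 4 weeks, 2 between the doses at 1 week and 10 at 4 weeks.

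The replicate numbers did not pair the arrays: deviations from the group means correlated at −0.02 on average over 45 pairs of equal number (−0.5 to 0.36) and at 0.01 over 90 pairs of unequal number. With the replicate block the counts were 7, 11, 16, 14, 0, 4, 5, 13 and 16. Signals near 16 (CLU 208791_at in 4w50 nM cells) give a compressed fold change. The deposited signals had been normalized between arrays, so a shift common to most genes could not be seen.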
